A study of Mus musculus with 9 samples.

Results

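Aminoacyl-tRNA synthetases attach each amino acid to its own tRNA, and the charged tRNA then carries that amino acid to the ribosome. Mammalian cells keep separate sets of these enzymes for the cytosol and for the mitochondrial matrix, nearly all of them encoded by different nuclear genes, so that the mitochondrial enzymes are made in the cytosol and imported. In the cytosol several synthetases are held together with scaffold proteins in the multisynthetase complex, and transcription of many cytosolic synthetase genes is known to be raised by Atf4, the transcription factor of the amino acid response.

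The genes described here are the 44 of 21899 genes in the deposited expression table whose pathway annotation holds the entry Aminoacyl-tRNA biosynthesis. They comprise 19 genes for cytosolic synthetases, 2 genes whose products serve both compartments (Gars for glycine and Kars for lysine), 17 genes for mitochondrial synthetases and 6 other enzymes of the pathway (Sepsecs, Pstk, Mtfmt, Gatb, Gatc and Qrsl1). RNA was measured in Neuro-2a (N2a), a mouse neuroblastoma cell line that the labels call a neuroblast, with no further treatment. Control cells carried a hairpin against luciferase (shlucif, n = 3), and Arf1-deficient cells carried one of 2 hairpins against Arf1, a small GTPase of the Golgi (shArf1-1, n = 3; shArf1-2, n = 3). All 9 libraries therefore came from cells with a hairpin, which the study delivered with lentiviral plasmids that bear a puromycin marker. The labels do not say whether the libraries of a group came from separate cultures, so p-values measure only the spread between these samples, which may be technical.

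Library totals ranged from 11182479 to 15594615 counts, and the 44 genes together took from 7741 to 9919 CPM (counts scaled to library size). All 44 were counted highly enough to be tested among 12448 genes. Arf1 itself, which checks the labels, was at 328, 316 and 328 FPKM (fragments scaled by transcript length and library size) with shlucif, at 130.3, 128 and 127 FPKM with shArf1-1 and at 166, 157 and 171 FPKM with shArf1-2. The 3 groups did not overlap, and Arf1 fell by 1.39 on the log2 scale with shArf1-1 (SE 0.05) and by 1.05 with shArf1-2 (SE 0.05).

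Markers of the labelled cell type were present. Of 12 tested noradrenergic neuroblast markers, 11 were higher in Arf1-deficient cells and none was lower, led in level by Tubb3, where 31.6% of all tested genes were higher and 32.9% lower by the threshold defined below. Markers of macrophages moved with the groups. Their summed level over 18 genes was 241, 215 and 201 FPKM in the shlucif libraries, 0.826, 0.778 and 1.07 FPKM with shArf1-1 and 1.07, 1.28 and 1.39 FPKM with shArf1-2. The most abundant in shlucif was Lyz2, and Itgam, Spi1 and Ctss were listed at 0 in every Arf1-deficient library. Of the 15 that could be tested 14 were lower in Arf1-deficient cells and 1, Mrc1, was higher (32.9% and 31.6% of all tested genes). The 18 genes together held 18 to 47 counts in Arf1-deficient libraries and 4050 to 4941 with shlucif. Most were thus counted highly enough to be tested only through shlucif, which fixed their direction, so the 14 of 15 are a description. This difference lies along every comparison with shlucif below, and its part in the results for the synthetase genes was not tested. In such bulk samples, fewer cells of a type and less RNA per cell cannot be told apart. Fibroblast markers summed to at most 1.99 FPKM and glial markers to at most 4.89 FPKM in any library.

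The second shArf1-1 library stood apart from the other 8. It held 4761 counts of 11 histone genes, against 125 to 664 in the others, and 1515 counts of the mitochondrial leucyl-tRNA synthetase gene Lars2, against 8421 to 25775 in the others. The 11 genes were picked for their spread between replicates, so these counts are a description. The counts by compartment, complex, class and pair are given below with and without this library.

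In Arf1-deficient cells as a whole (6 libraries against 3), 21 of the 44 genes were higher, 6 were lower and 17 did not pass. The threshold for a call was 0.05 on p-values from edgeR (quasi-likelihood test), adjusted after Benjamini and Hochberg for all genes tested. The share called, 61.4%, was near that of all tested genes, of which 64.5% were called, so the count of calls is no result about these genes. The split by direction was unequal. The pathway had 47.7% of its genes higher and 13.6% lower, beside 31.6% and 32.9% of all tested genes. Its median log2 fold change was 0.14, beside 0.0033 for all tested genes. Without the second shArf1-1 library 22 genes passed, 16 of them higher and 6 lower. These 22 of 44, with 36.4% higher and 13.6% lower, stand beside a fit in which 63.6% of 12647 tested genes were called, 30.7% higher and 32.8% lower. The 5 genes that lost their call were Mars1, Vars, Aars2, Cars2 and Iars2, all with small rises. Leaving out a control library did much the same. Without shlucif replicate 3, 16 genes were higher and 6 lower, where 7256 of 12626 tested genes were called. Without shlucif replicate 2, 17 were higher and 6 lower, where 7343 of 12614 were called.

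Of the cytosolic synthetases 12 of 19 rose, 2 fell (Qars and Sars) and 5 did not pass, with a median log2 fold change of 0.14. Among mitochondrial synthetases 9 of 17 rose, 2 fell (Fars2 and Pars2) and 6 did not pass, with a median of 0.20. Of the enzymes shared by both compartments Kars fell and Gars did not pass. Of the 6 other enzymes, Mtfmt fell and the remaining 5 did not pass. Without the second shArf1-1 library, 10 cytosolic and 6 mitochondrial synthetases rose and the same numbers fell, with medians of 0.15 and 0.20. The cytosolic count was lowest, at 9, without shlucif replicate 2, and the mitochondrial count was also 6 without shlucif replicate 3. Taking FPKM in single libraries, all 6 Arf1-deficient values lay above all 3 shlucif values for 22 genes, below them for 5 and overlapped for 17, where 59.2% of all tested genes were separated in this way, 32.5% above and 26.7% below.

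**Figure D1:**
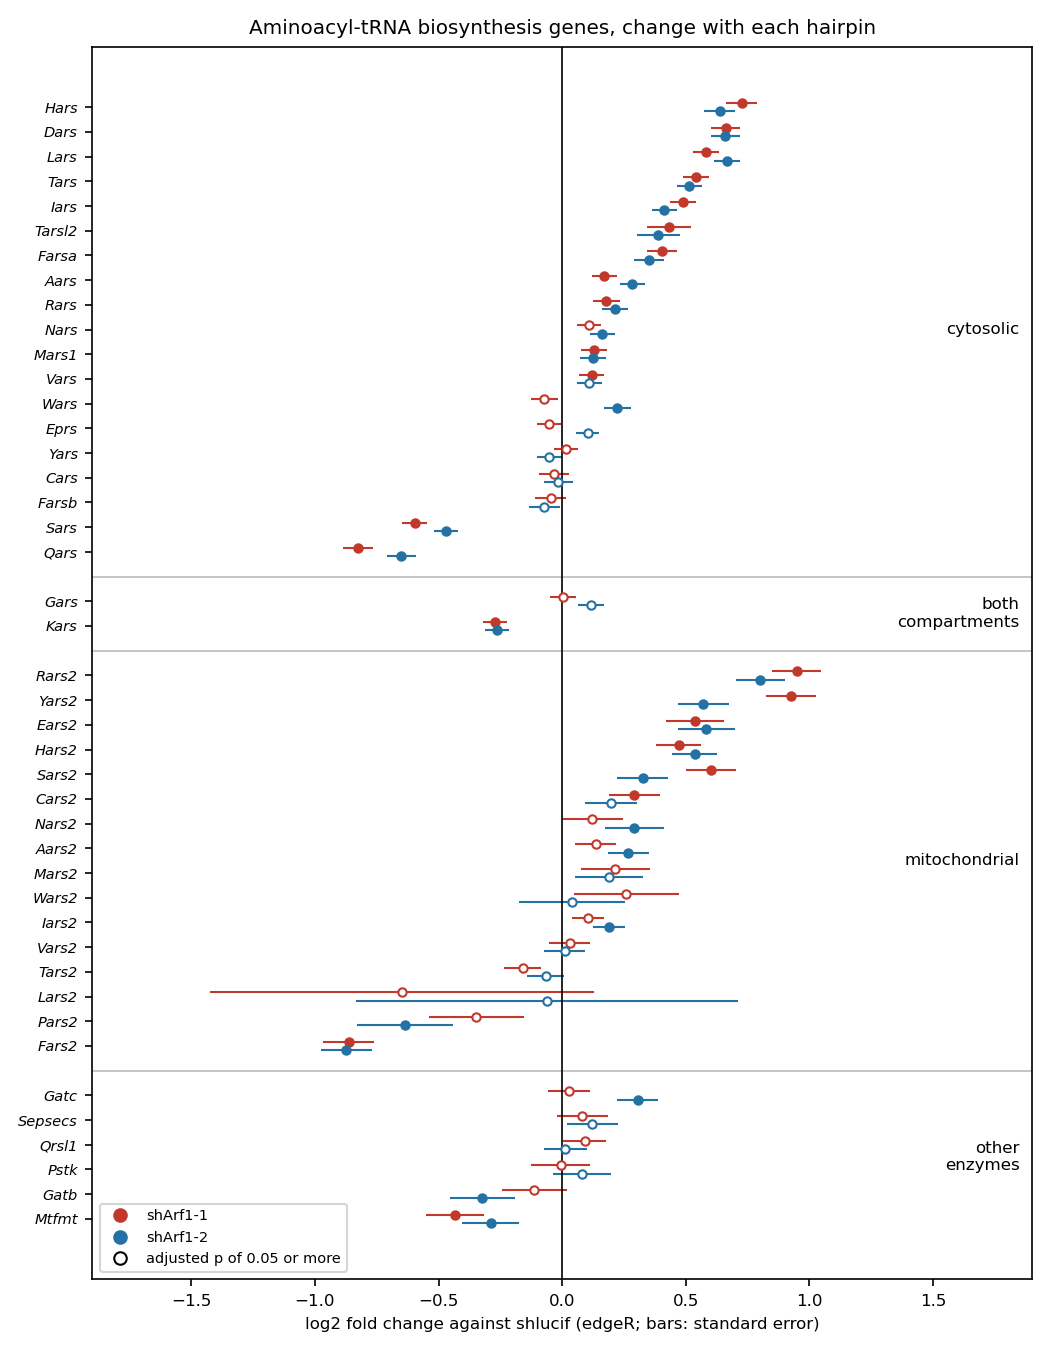
Log2 fold change against shlucif (x axis) of genes of the pathway (y axis, grouped by compartment) with shArf1-1 in red and shArf1-2 in blue; bars are standard errors and open circles mark an adjusted p of 0.05 or more. Most filled points of the cytosolic and mitochondrial groups lie to the right of 0, with Qars, Sars and Fars2 to the left with both hairpins, and Lars2 has the widest bars.

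The cytosolic genes with the largest changes were Hars, Dars, Lars and Tars, which rose, and Qars and Sars, which fell. Hars, the histidyl-tRNA synthetase gene, was at 24.9, 25.0 and 23.4 FPKM with shlucif, 40.8, 41.7 and 43.4 FPKM with shArf1-1 and 40.6, 39.1 and 40.2 FPKM with shArf1-2. Every Arf1-deficient library was above every control library, and the rise was 1.60-fold (log2 fold change 0.68, SE 0.06, adjusted p = 1.13e-08). Dars (chr1:128363707-128417368, minus strand), which charges aspartate tRNA, was at 24.4, 22.8 and 23.6 FPKM with shlucif, 39.9, 36.2 and 40.2 FPKM with shArf1-1 and 40.0, 38.5 and 39.0 FPKM with shArf1-2. The groups again did not overlap, with a rise of 1.58-fold (log2 0.66, SE 0.06, adjusted p = 4.96e-09), and the values of the Arf1 hairpins lay among each other.

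Lars, the leucyl-tRNA synthetase gene, whose product is also known as a leucine sensor upstream of mTORC1, was at 28.9, 30.3 and 27.8 FPKM with shlucif, 44.1, 44.0 and 47.2 FPKM with shArf1-1 and 47.9, 47.3 and 49.9 FPKM with shArf1-2. It rose 1.54-fold (log2 0.62, SE 0.05, adjusted p = 6.38e-09). All shArf1-2 libraries lay above all shArf1-1 libraries only in FPKM, which lacks the TMM scaling of the tests, and at the closest by 47.3 against 47.2. The hairpins did not differ past the threshold (log2 0.08, SE 0.05, adjusted p = 0.318). Tars (chr15:11382301-11399665, minus strand), for threonine, was at 26.4, 26.4 and 26.0 FPKM with shlucif, 38.3, 40.1 and 40.4 FPKM with shArf1-1 and 40.4, 38.9 and 38.9 FPKM with shArf1-2. The 6 Arf1-deficient libraries were high and close together, at 1.44-fold (log2 0.53, SE 0.05, adjusted p = 1.67e-08). Smaller rises with both hairpins were those of Iars (isoleucine, log2 0.45), Tarsl2 (a second threonyl enzyme, 0.41), Farsa (the alpha subunit for phenylalanine, 0.38), Aars (alanine, 0.23), Rars (arginine, 0.20) and Mars1 (methionine, 0.13).

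Qars (chr9:108507706-108515941, plus strand), the glutaminyl-tRNA synthetase gene, was at 25.8, 24.6 and 24.9 FPKM with shlucif, 15.1, 15.5 and 13.6 FPKM with shArf1-1 and 17.4, 16.9 and 16.1 FPKM with shArf1-2. All Arf1-deficient libraries were below the controls, and Qars fell to 0.601 of the control level (log2 fold change -0.73, SE 0.06, adjusted p = 9.66e-09). Sars (chr3:108424865-108445209, minus strand), which charges serine tRNA and the tRNA on which selenocysteine is made, had the highest level of the cytosolic synthetases in control cells. It was at 149, 142 and 153 FPKM with shlucif, 104, 100.4 and 100.1 FPKM with shArf1-1 and 111, 114 and 112 FPKM with shArf1-2. The 3 groups did not overlap, and Sars fell to 0.692 of the control level (log2 -0.53, SE 0.05, adjusted p = 2.68e-08).

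The calls of 3 cytosolic genes with small rises depended on single libraries. Nars (asparagine, log2 fold change 0.14, adjusted p = 0.0173) did not pass without shlucif replicate 2 (0.12). Mars1 (adjusted p = 0.033) did not pass without shlucif replicate 2 (0.09) or 3 (0.14), shArf1-1 replicate 1 (0.12) or 2 (0.11), or shArf1-2 replicate 3 (0.13). Vars (valine, 0.11, adjusted p = 0.0387) did not pass without shlucif replicate 2 (0.10) or 3 (0.10), shArf1-1 replicate 1 (0.11) or 2 (0.10), or shArf1-2 replicate 1 (0.11) or 3 (0.12). Cars (cysteine), Eprs (glutamate and proline), Farsb (the beta subunit for phenylalanine), Wars (tryptophan) and Yars (tyrosine) did not pass in the fit of all 9 libraries, with log2 fold changes from -0.06 (Farsb) to 0.08 (Wars). The 2 subunits of the cytosolic phenylalanyl enzyme thus had separate values, 0.38 (SE 0.06) for Farsa and -0.06 (SE 0.06) for Farsb, and the difference between them was not tested.

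Kars (chr8:111993443-112011323, minus strand), the lysyl-tRNA synthetase gene for both compartments, was at 127, 124 and 126 FPKM with shlucif, 107, 109 and 109 FPKM with shArf1-1 and 108, 109 and 113 FPKM with shArf1-2. All Arf1-deficient libraries were lower, by a log2 fold change of -0.27 (SE 0.04, adjusted p = 2.44e-05). Gars, the glycyl-tRNA synthetase gene, had the highest level of all synthetases, with 181 ± 6.83 FPKM (SD, n = 3) in control cells, and a log2 fold change of 0.06 (SE 0.05, adjusted p = 0.339).

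In the multisynthetase complex, the genes for whose 8 synthetase polypeptides are Eprs, Iars, Lars, Qars, Mars1, Kars, Rars and Dars, 5 rose, 2 fell and 1 did not pass, with a median log2 fold change of 0.16. Among the 13 cytosolic or shared synthetases outside it, 7 rose, 1 fell and 5 did not pass, with a median of 0.11. Of the 8 in the complex 87.5% were called and of the 13 outside it 61.5%, beside 64.5% of all tested genes, of which 31.6% were higher and 32.9% lower. Without the second shArf1-1 library, 4 of the 8 rose and 2 fell, and 6 of the 13 rose and 1 fell. Its scaffold genes had unlike values. Aimp2 was at 26.4, 23.6 and 21.6 FPKM with shlucif, 45.2, 47.0 and 38.8 FPKM with shArf1-1 and 38.0, 41.1 and 38.6 FPKM with shArf1-2. It was higher in every Arf1-deficient library, by 1.66-fold (log2 0.73, SE 0.09, adjusted p = 6.73e-07), while Aimp1 fell by 0.35 on the log2 scale (SE 0.06, adjusted p = 2.19e-05) and Eef1e1 did not pass (0.11, SE 0.08, adjusted p = 0.257).

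By the structural class of the catalytic domain, which was not used to choose the genes, 5 of 9 class I and 7 of 11 class II cytosolic or shared synthetases rose, and 1 and 2 fell; Eprs carries both classes and is in neither count. Among mitochondrial synthetases, 5 of 9 of class I and 4 of 8 of class II rose. None of class I fell, and Fars2 and Pars2 of class II did. The shares called were 66.7% and 81.8% for cytosolic or shared enzymes of class I and class II and 55.6% and 75.0% for mitochondrial ones, beside 64.5% of all tested genes (31.6% higher, 32.9% lower). The class I counts depended on single libraries. The cytosolic count of 5 became 3 without shlucif replicate 2 or 3, shArf1-1 replicate 1 or 2, or shArf1-2 replicate 3, and the mitochondrial count of 5 became 3 without shlucif replicate 3 or shArf1-1 replicate 2. Without this last library 7 cytosolic or shared and 3 mitochondrial synthetases of class II rose.

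Mitochondrial synthetases with the largest changes were Rars2, Yars2, Ears2 and Hars2, which rose, and Fars2 and Pars2, which fell. Rars2 (chr4:34614957-34660167, plus strand), the mitochondrial arginyl-tRNA synthetase gene, was at 8.11, 7.31 and 6.17 FPKM with shlucif, 15.3, 12.8 and 15.1 FPKM with shArf1-1 and 13.1, 12.6 and 13.8 FPKM with shArf1-2. Its Arf1-deficient libraries were all above the controls, with the largest rise of the pathway at 1.83-fold (log2 0.88, SE 0.10, adjusted p = 3.57e-07). Yars2 (chr16:16302965-16309640, plus strand), for tyrosine, was at 5.71, 5.01 and 5.40 FPKM with shlucif, 9.97, 10.3 and 11.5 FPKM with shArf1-1 and 8.10, 7.74 and 9.33 FPKM with shArf1-2. The 3 groups did not overlap, shArf1-1 being highest, and the rise in both hairpins together was 1.69-fold (log2 0.76, SE 0.12, adjusted p = 2.62e-05).

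Ears2 (chr7:122037213-122067263, minus strand), which charges glutamate, was at 2.51, 2.20 and 2.31 FPKM with shlucif, 3.71, 3.75 and 3.17 FPKM with shArf1-1 and 3.91, 3.47 and 3.66 FPKM with shArf1-2. Controls were lowest throughout, and the rise was 1.48-fold (log2 0.56, SE 0.10, adjusted p = 1.13e-04). Hars2, for histidine, was at 5.03, 4.92 and 4.61 FPKM with shlucif, 6.87, 6.90 and 7.18 FPKM with shArf1-1 and 7.25, 7.59 and 7.36 FPKM with shArf1-2. It rose 1.42-fold without overlap (log2 0.50, SE 0.08, adjusted p = 1.93e-05). Sars2 (serine, log2 0.47) rose with both hairpins as well.

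Fars2 (chr13:36117412-36726280, plus strand), the mitochondrial phenylalanyl-tRNA synthetase gene, was at 5.25, 5.72 and 4.97 FPKM with shlucif, 3.32, 3.13 and 2.68 FPKM with shArf1-1 and 2.96, 2.91 and 3.27 FPKM with shArf1-2. All Arf1-deficient libraries were below the controls, at 0.548 of the control level (log2 fold change -0.87, SE 0.09, adjusted p = 1.07e-07), the largest fall of the pathway. Pars2 (chr4:106651069-106655282, plus strand), for proline, was at 3.09, 2.17 and 1.87 FPKM with shlucif, 2.09, 1.73 and 1.99 FPKM with shArf1-1 and 1.83, 1.44 and 1.55 FPKM with shArf1-2. Here the groups overlapped, since 4 of the 6 Arf1-deficient libraries were below all controls. The log2 fold change was -0.49 (SE 0.18, adjusted p = 0.0245) and did not pass without shlucif replicate 1, the highest library (-0.25).

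Aars2 (alanine, 0.20), Cars2 (cysteine, 0.25) and Iars2 (isoleucine, 0.15) were called with small rises that did not hold without some single libraries. Aars2 did not pass without shlucif replicate 2 (0.17) or 3 (0.18), shArf1-1 replicate 2 (0.20), or shArf1-2 replicate 1 (0.17) or 2 (0.17). Cars2 did not pass without shlucif replicate 1 (0.23) or 3 (0.21) or shArf1-1 replicate 2 (0.22). Iars2 did not pass without shlucif replicate 2 (0.13) or 3 (0.12), shArf1-1 replicate 2 (0.15), or shArf1-2 replicate 1 (0.13) or 3 (0.13). Neither Aars2 (0.19) nor Iars2 (0.14) passed with DESeq2. Iars2 also did not pass with a replicate block (0.15), with upper-quartile scaling (0.14), with no filter on low counts (0.15) or with at least 10 counts asked for in every library (0.14). Mars2 (methionine), Nars2 (asparagine), Tars2 (threonine), Vars2 (valine) and Wars2 (tryptophan) did not pass, with log2 fold changes from -0.11 (Tars2) to 0.21 (Nars2), and Mars2 (0.20) passed only when shlucif replicate 2 was left out (0.36).

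**Figure D2:**
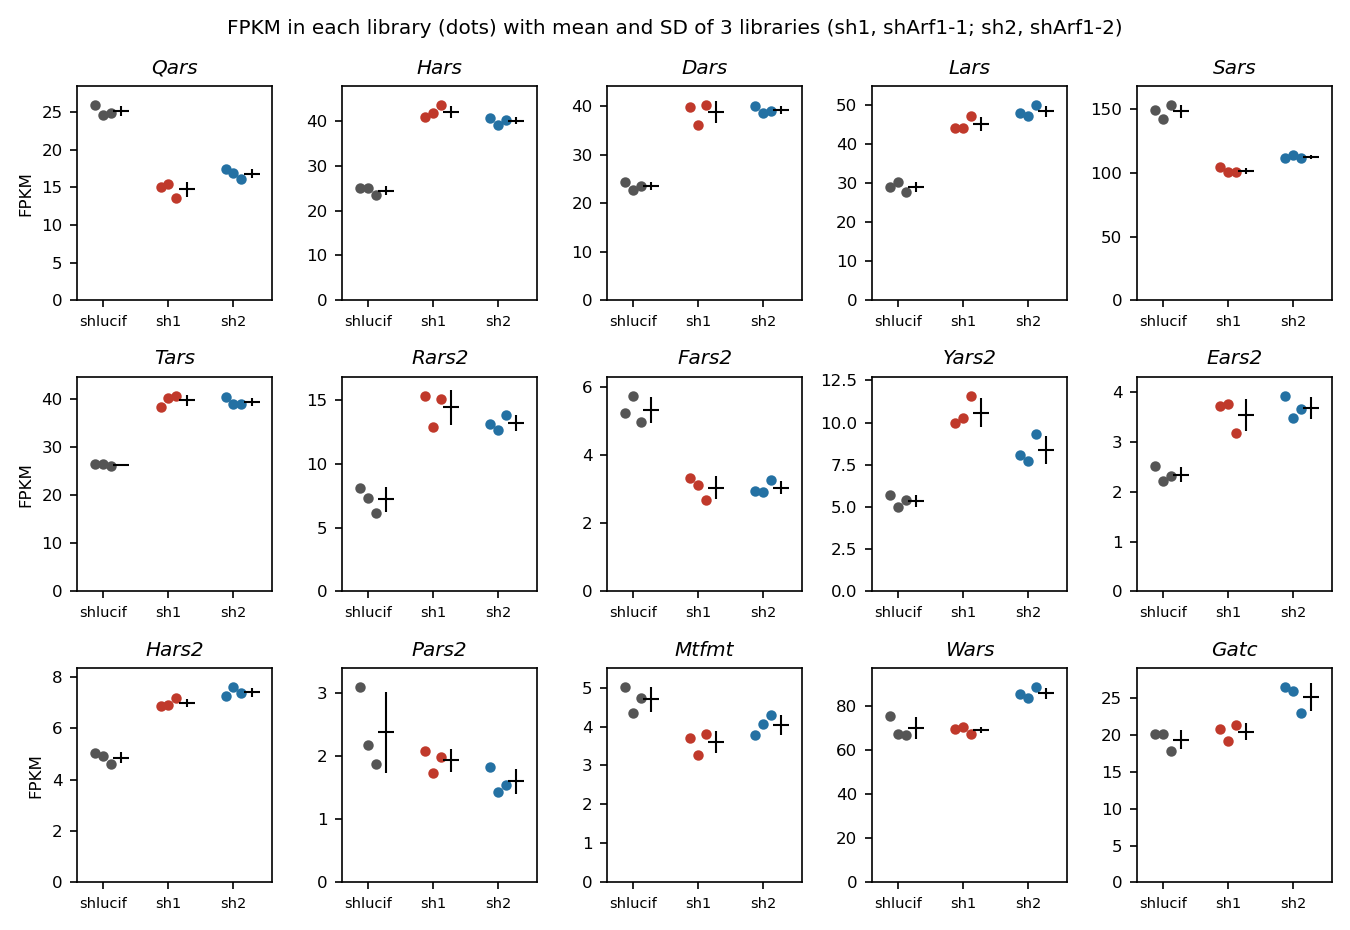
FPKM (y axis, from 0) of 15 genes in each of 9 libraries (dots; x axis, shlucif, shArf1-1 as sh1 and shArf1-2 as sh2), with the mean and SD of 3 libraries as black crosses. Dots of the control and Arf1-deficient groups do not overlap in 12 panels, whereas in those of Pars2, Wars and Gatc some do.

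Lars2 (chr9:123366927-123462666, plus strand), the mitochondrial leucyl-tRNA synthetase gene, varied most between replicates. It was at 124, 85.5 and 78.7 FPKM with shlucif, 87.3, 12.2 and 91.2 FPKM with shArf1-1 and 68.9, 56.4 and 164 FPKM with shArf1-2. The lowest and the highest library both belonged to Arf1-deficient groups and the groups overlapped, with a log2 fold change of -0.33 (SE 0.65, adjusted p = 0.682). This value became -0.09 without shlucif replicate 1, -0.10 without shArf1-1 replicate 2 and -0.67 without shArf1-2 replicate 3, and it was -0.57 with a replicate block and -0.56 and -0.58 with limma on log2(FPKM + 1) and log2(FPKM + 0.1), never past the threshold. The SD of its log2 CPM within groups was 1.09, beside 0.03 to 0.29 for the other 43 genes and a median of 0.10 over 10810 genes. It ranked 12 in that list, and the 11 genes above it were the histone genes counted above. Of the 50-base runs in its exons, at most 0.169% were shared with any other annotated gene. Sequences outside the annotated transcripts were not searched, so reads from such a source were not tested for. Leaving it out moved the mitochondrial median from 0.20 to 0.21.

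**Figure D3:**
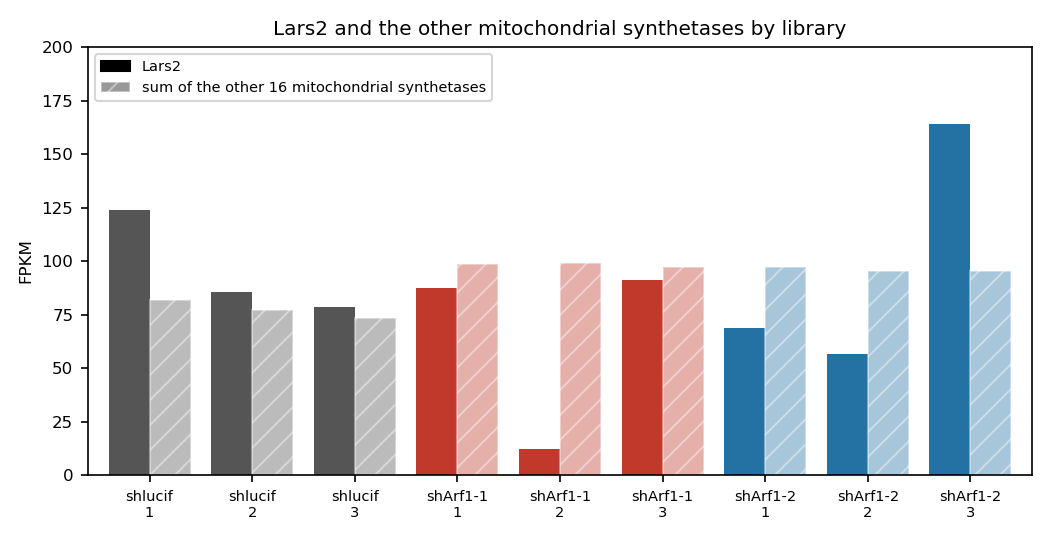
FPKM (y axis, from 0) in each of 9 libraries (x axis) of Lars2 (solid bars) and of the sum of the other 16 mitochondrial synthetase genes (hatched bars). Lars2 ranges from 12.2 to 164 FPKM with its extremes in shArf1-1 replicate 2 and shArf1-2 replicate 3, while the sum of the others stays between 73.2 and 99.2 FPKM.

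Without Lars2, the summed mitochondrial level was 77.4 ± 4.42 FPKM (SD, n = 3) with shlucif, 98.3 ± 1.07 with shArf1-1 and 96.0 ± 1.11 with shArf1-2. Every Arf1-deficient library was above every control library. The summed cytosolic level was 958 ± 14.4 FPKM with shlucif, 1053 ± 6.68 with shArf1-1 and 1104 ± 13.6 with shArf1-2, and the 3 groups did not overlap. The gene with the highest cytosolic level was Sars in each shlucif library and Aars in each Arf1-deficient library. These FPKM values lack the TMM scaling used in the tests. Its factors were 0.962 to 0.983 with shlucif, 1.005 to 1.013 with shArf1-1 and 1.014 to 1.032 with shArf1-2. The separation of the groups, above all of the Arf1 hairpins, is therefore one of FPKM and was not checked with these factors. The differences between these sums were not tested.

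The levels of the sets differed in control cells. The median of the mean FPKM with shlucif was 41.3 for the cytosolic genes, from 5.27 (Tarsl2) to 148 (Sars), and 5.31 for the mitochondrial genes, from 0.821 (Wars2) to 96.0 (Lars2). Pairing the enzymes by amino acid gave 19 pairs, with Eprs, Fars2 and Tars2 each in 2, and in 17 the cytosolic gene had the higher FPKM. The median ratio of cytosolic to mitochondrial FPKM was 7.76, and the ratio ran from 0.302 for leucine to 100.7 for methionine. The second exception was Tarsl2 beside Tars2, with 0.576.

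Both members of a pair rose for 5 pairs, among them those of alanine, histidine, isoleucine and arginine, although the calls of Aars2 and Iars2 depended on single libraries. Opposite calls were found for serine, where Sars fell and Sars2 rose (5.90 ± 0.300 FPKM with shlucif, 9.34 ± 1.26 with shArf1-1 and 7.76 ± 0.398 with shArf1-2), and for phenylalanine, where Farsa rose and Fars2 fell. In 6 pairs the cytosolic gene alone rose, in 3 the mitochondrial gene alone rose, in 2 the mitochondrial gene alone fell and in 1 neither passed. Without the second shArf1-1 library both rose in 3 pairs, those of alanine and isoleucine no longer among them, the mitochondrial gene alone rose in 2 and neither passed in 4, and the other counts were as before. Of all tested genes 31.6% were higher and 32.9% lower, and no matching share of pairs was computed over all genes. Eprs, Fars2 and Tars2 each count in 2 pairs, so the counts of pairs are a description. The difference in change between members of a pair was not tested.

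**Figure D4:**
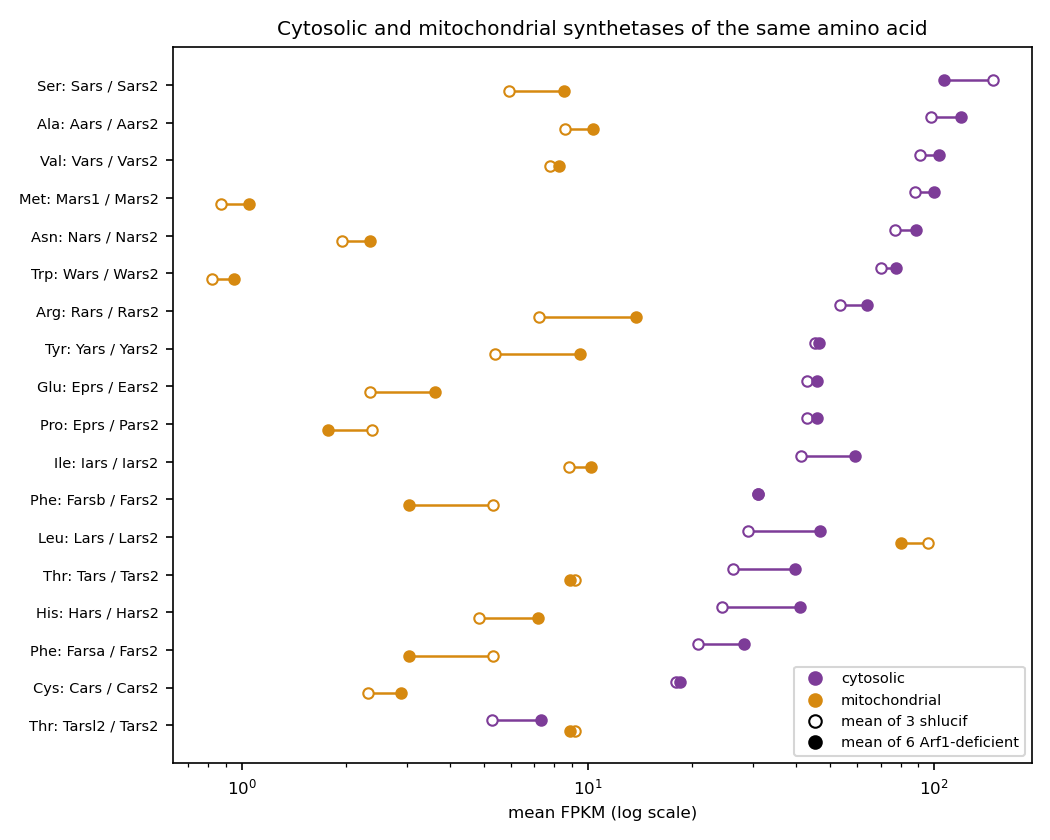
Mean FPKM (x axis, log scale) of the cytosolic (purple) and the mitochondrial (orange) synthetase gene of amino acid pairs (y axis), with open circles for 3 shlucif and filled circles for 6 Arf1-deficient libraries. Purple points lie to the right of orange points in the pairs drawn, the exceptions being leucine and the pair of Tarsl2 with Tars2.

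The remaining 6 enzymes act on tRNAs that already carry an amino acid. Mtfmt (chr9:65435782-65453054, plus strand), which formylates the methionyl-tRNA that starts mitochondrial translation, was at 5.001, 4.35 and 4.74 FPKM with shlucif, 3.72, 3.28 and 3.81 FPKM with shArf1-1 and 3.77, 4.06 and 4.29 FPKM with shArf1-2. It was lower in every Arf1-deficient library, with a log2 fold change of -0.36 (SE 0.10, adjusted p = 5.49e-03). Gatb, Gatc and Qrsl1 encode the amidotransferase that makes mitochondrial glutaminyl-tRNA from glutamyl-tRNA. None of the 3 passed over both hairpins (-0.22, 0.17 and 0.05), although Gatc did when counts were scaled by library size alone (0.24), and neither did Sepsecs (0.10) or Pstk (0.04), which make selenocysteinyl-tRNA.

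By hairpin, 18 genes rose and 5 fell with shArf1-1, where 67.5% of all tested genes were called, 33.1% higher and 34.4% lower, and 22 rose and 7 fell with shArf1-2, where 63.4% were called, 30.9% higher and 32.6% lower. The latter count of 7 became 4 without shlucif replicate 1. Without the second shArf1-1 library, 16 genes rose and 6 fell with shArf1-1, where 65.9% of all tested genes were called, 32.1% higher and 33.8% lower. Both comparisons share the 3 shlucif libraries, so their calls are not independent of each other. Of the 44 genes, 16 were higher with both hairpins, 5 were lower with both (Qars, Sars, Kars, Fars2 and Mtfmt) and 13 passed with neither. These are 36.4%, 11.4% and 29.5% of the pathway, beside 27.3%, 29.0% and 25.6% of all tested genes. With shArf1-1 alone Vars and Cars2 passed, and with shArf1-2 alone Nars, Wars, Aars2, Iars2, Nars2, Pars2, Gatb and Gatc did. No gene was called in opposite directions. Cytosolic medians were 0.13 and 0.21 with shArf1-1 and shArf1-2, and mitochondrial medians were 0.22 and 0.20.

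The test of the hairpins against each other called 5 of the 44 genes, 4 higher with shArf1-2 and 1 lower, where 14.4% of all tested genes were called, 6.98% higher and 7.46% lower. Yars2 was the lower one, with a log2 difference of -0.36 (SE 0.10, adjusted p = 0.0105). Wars was at 75.7, 67.6 and 66.8 FPKM with shlucif, 69.7, 70.4 and 67.5 FPKM with shArf1-1 and 85.6, 83.6 and 88.5 FPKM with shArf1-2. The shArf1-2 libraries were above all others, whereas shArf1-1 libraries lay among the controls, and the hairpins differed by 0.29 (SE 0.05, adjusted p = 2.25e-04). Gatc was at 20.1, 20.2 and 17.8 FPKM with shlucif, 20.8, 19.3 and 21.4 FPKM with shArf1-1 and 26.5, 26.0 and 23.0 FPKM with shArf1-2. The shArf1-2 libraries were again the highest, with a difference of 0.28 (SE 0.08, adjusted p = 0.0200). Eprs (0.16, adjusted p = 0.0242) and Qars (0.18, adjusted p = 0.0482) were the other two. Arf1 itself was higher with shArf1-2 than with shArf1-1, by 0.34 (SE 0.05, adjusted p = 1.16e-05), and of the 12 neuroblast markers 6 were lower with shArf1-2 and none was higher, beside 7.46% and 6.98% of all tested genes. Isl1 and Stmn2 were among those lower in every fit that left out 1 library, and the calls of 3 were lost in some. The part of Arf1 and of the neuroblast markers in the differences was not tested.

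Single libraries decided most of these 5 calls, and the count of 5 became 2 without shArf1-1 replicate 1, 1 without shArf1-2 replicate 1 and 3 without shArf1-2 replicate 2 or 3. Yars2 did not pass without shArf1-1 replicate 3 (-0.29) or shArf1-2 replicate 1 (-0.33) or 2 (-0.29). Gatc did not pass without shArf1-1 replicate 1 (0.29) or 2 (0.24) or shArf1-2 replicate 1 (0.23) or 2 (0.26). Eprs did not pass without shArf1-1 replicate 1 (0.16) or shArf1-2 replicate 1 (0.14) or 3 (0.16). Qars did not pass without shlucif replicate 2 (0.18) or 3 (0.18), shArf1-1 replicate 1 (0.20) or 3 (0.12), or any shArf1-2 replicate (0.15 to 0.20). Wars passed in every fit.

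Because Atf4 is known to act through a composite element whose letters include TGATGNAA, this string was searched on both strands of the promoter windows of RefSeq (build GRCm38.p6), each 300 bases long with 250 before and 50 after a gene's start. The 32 genes of the pathway that had a window held it in 5 cases (15.6%), compared with 4.51% of 27025 genes with a window. Among the genes without a window were Cars, Hars, Lars, Nars, Rars, Vars, Wars, Hars2, Pars2, Sepsecs and Gatb. Stretches of 30 bases around 5 matches, 1 in each gene, are shown to let the letters be compared. They read 5′ to 3′ on the gene's strand and capitals mark the match, which is TGATGNAA itself in Yars and its reverse complement in the others.
Aars, chr8:111033840-111033869, plus strand: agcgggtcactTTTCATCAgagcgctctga
Iars, chr13:49682126-49682155, plus strand: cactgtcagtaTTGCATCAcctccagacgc
Tars, chr15:11399655-11399684, minus strand: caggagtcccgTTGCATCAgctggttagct
Yars, chr4:129189895-129189924, plus strand: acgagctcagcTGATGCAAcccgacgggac
Gars, chr6:55037960-55037989, plus strand: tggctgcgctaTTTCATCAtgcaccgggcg

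All 5 of these genes serve the cytosol, and none of the mitochondrial synthetases with a window held the string. Aars (log2 fold change 0.23, SE 0.05), Iars (0.45, SE 0.05) and Tars (0.53, SE 0.05) rose, while Yars (-0.02, SE 0.05) and Gars (0.06, SE 0.05) did not pass the threshold. A match is a description of letters, not a site of binding. Dars, Farsa, Mars1 and Tarsl2, which rose, held no match in their windows, and neither did Qars, Sars and Kars, which fell.

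Genes that act before and after charging were taken from lists of 39 table rows outside the pathway, of which 37 could be tested, and 12 rose, 13 fell and 12 did not pass. The share called, 67.6%, with 32.4% higher and 35.1% lower, was near that of all tested genes (64.5%, 31.6% and 32.9%), so these counts are no result about the lists as a whole. Without the second shArf1-1 library 12 rose and 14 fell, the addition being Tufm, the mitochondrial elongation factor (-0.15). Among 5 genes of tRNA maturation and export, 4 rose and 1 fell. Xpot, the exportin that carries tRNAs out of the nucleus, was at 45.4, 45.1 and 42.6 FPKM with shlucif, 78.8, 77.1 and 81.4 FPKM with shArf1-1 and 81.3, 77.6 and 80.9 FPKM with shArf1-2. It was higher in every Arf1-deficient library, by 1.72-fold (log2 0.78, SE 0.05, adjusted p = 5.93e-11). Elac2, which trims the 3′ end of tRNA precursors (0.58), Trnt1, which adds the terminal CCA (0.55), and Ssb, the La protein that binds new transcripts (0.25), also rose, although Ssb did not pass without shlucif replicate 1 (0.17). Trit1, which modifies the base beside the anticodon, was at 13.1, 13.9 and 12.7 FPKM with shlucif, 5.82, 5.44 and 5.96 FPKM with shArf1-1 and 8.20, 7.30 and 7.14 FPKM with shArf1-2. It fell in every Arf1-deficient library (log2 fold change -1.05, SE 0.11, adjusted p = 1.20e-07).

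Of the 7 cytosolic elongation factor genes, 5 fell, 1 rose and 1 did not pass, where 32.9% of all tested genes were lower and 31.6% higher. Eef2, which moves the ribosome along the message, fell by 0.77 on the log2 scale (SE 0.06), and Eef1a1, which brings charged tRNAs to the ribosome, fell by 0.56 (SE 0.05). The exchange factor subunits Eef1g (-0.36), Eef1b2 (-0.26) and Eef1d (-0.20) fell too, and Eef1a2, the form of Eef1a1 used in neurons and muscle, rose (0.17, SE 0.05). Among 8 mitochondrial translation factor genes, the elongation factors Gfm1 (0.38) and Tsfm (0.30) rose, the ribosome recycling factor Mrrf fell (-0.67) and 5 did not pass, a share called of 37.5% beside 64.5% of all tested genes. In the list of proofreading and recycling, Ptrh2, which encodes a hydrolase that releases tRNAs from stalled peptides, rose (0.32), and Dtd1 and Dtd2 did not pass.

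The amino acid response list had 10 tested genes, with 3 higher, 4 lower and 3 not past the threshold, a share called of 70.0% that was near the 64.5% of all tested genes. Atf4 rose (log2 0.59, SE 0.05), as did Chac1 (0.68), which breaks down glutathione, and Sesn2 (0.64), an inhibitor of mTORC1. Ddit3, the transcription factor CHOP, fell (-0.84, SE 0.16), as did the enzymes Phgdh of serine synthesis (-0.62) and Asns of asparagine synthesis (-0.21) and the kinase Eif2ak3 (-0.24). The call of Eif2ak3 did not hold without shlucif replicate 2 (-0.17) or 3 (-0.26) or any shArf1-2 replicate (-0.21 to -0.20). Chac1, Ddit3, Phgdh, Trib3 and Eif2ak3 differed between the hairpins, by 0.31, 0.53, 0.17, 0.38 and -0.33 on the log2 scale (shArf1-2 minus shArf1-1). These 5 of 10 genes, 4 higher and 1 lower, stand beside 14.4% of all tested genes called between the hairpins, 6.98% higher and 7.46% lower. Chac1 did not pass without shArf1-1 replicate 3 (0.20), nor Phgdh without shArf1-1 replicate 3 (0.13) or shArf1-2 replicate 1 (0.18) or 3 (0.13).

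**Figure D5:**
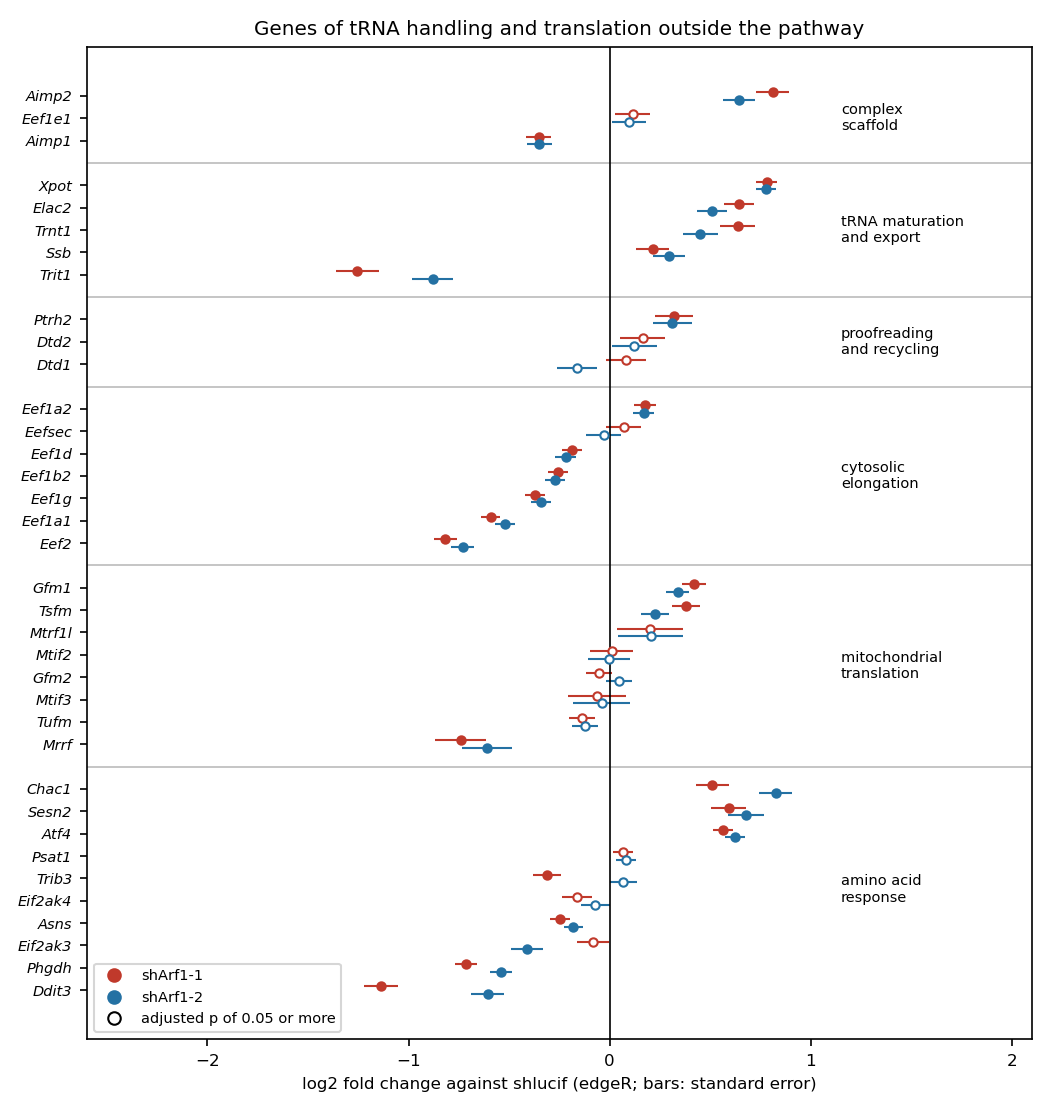
Log2 fold change against shlucif (x axis) of tested genes of tRNA handling, translation and the amino acid response (y axis, by list), with shArf1-1 in red and shArf1-2 in blue, standard errors as bars and open circles for an adjusted p of 0.05 or more. The tRNA maturation genes except Trit1 lie to the right of 0 and the cytosolic elongation factors except Eef1a2 and Eefsec lie to the left.

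Some of the genes named share exonic bases with another gene, and the strand setting of the counting is not given in the sources used here, so reads from such bases cannot be assigned to either gene with certainty. These overlaps are those of the GENCODE annotation of GRCm38, which may not be the annotation used for counting, since the positions in the deposited table differ from it for 43 of the 44 members. Hars and Hars2, which lie head to head and both rose, share 195 bases on opposite strands. Aars shares 14.3% of its exonic bases with Exosc6 on the same strand, Fars2 shares 8.72% with Nrn1, Iars2 22.9% with Rab3gap2, Farsb 9.47% with Sgpp2 and Pstk 58.8% with Ikzf5, all on opposite strands, and Mars1 shares 68 bases with Ddit3.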

How the data were processed

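The authors prepared libraries from poly(A)-enriched total RNA and deposited 1 table of read counts per gene and FPKM values computed from them; the labels' processing notes name build mm10, and the aligner, counter and strand setting are not given in the sources used here. The deposited counts were tested as they stand, and the deposited FPKM values served for levels. The deposited columns of Arf1-deficient libraries are named shArf1 or shArf2, each with a replicate number; these were read as shArf1-1 and shArf1-2, because the labels name no target but Arf1, and this reading is an assumption. In all, 0 columns of libraries were left without a sample; 8 lines that held only overflowing annotation were skipped. Low genes were removed with filterByExpr on the 3 groups, counts were scaled by TMM, and edgeR 4.0.16 (R 4.3.3) quasi-likelihood fits with robust dispersion were adjusted by Benjamini-Hochberg over 12448 genes. Arf1-deficient libraries were fitted as 1 group against shlucif and, in a second fit, by hairpin. Standard errors are the log2 fold change divided by the square root of F. The script was tested on simulated data. Values in every library are given for the 6 cytosolic or shared and the 6 mitochondrial genes with the largest absolute change among those past the threshold, for other enzymes past it and for the 3 largest hairpin differences past it; genes given so outside this rule (Kars, Lars2, Aimp2, Xpot, Trit1) were picked with their values in view. The members and lists were chosen with earlier results of these data known. Coordinates are from the GENCODE annotation of GRCm38, matched by gene identifier; the positions in the deposited table, which had the same start and end for only 1 of 44 members although the labels name mm10, were not used. Some genes and 1 promoter stretch are counted in the totals but not reported here by name.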

Additional observations from a re-analysis of the deposited data

Results flagged for a closer look

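The change of 5 genes of the pathway differed between the Arf1 hairpins in edgeR's test of the difference itself, given on the log2 scale with shArf1-1 subtracted from shArf1-2. They are 11.4% of the pathway, no larger a share than the 14.4% of all tested genes, and each of these calls except that of Wars was lost when single libraries were left out. Yars2 rose less with shArf1-2 (-0.36), Wars (0.29) and Gatc (0.28) passed against shlucif with shArf1-2 and not with shArf1-1, Qars fell less with it (0.18), and Eprs had values of opposite sign with the hairpins, neither past the threshold, and differed by 0.16.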

How the results depend on the processing

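The alternatives were DESeq2 in place of edgeR, scaling by total library size or the upper quartile, dropping the filter on low counts or asking for 10 counts or more in each library, limma on log2(FPKM + 1) or log2(FPKM + 0.1), a replicate block and leaving out each library in turn; leaving out Lars2 was added after seeing the data. Over the 44 genes, the counts called in Arf1-deficient cells and with shArf1-1 stayed within 1.5 times of those reported in every one of them. With a replicate block, 26 of the 44 genes were called in Arf1-deficient cells, 25 with shArf1-1, 30 with shArf1-2 and 5 between the hairpins; libraries of the same number deviated from their group means with a mean correlation of 0.0070 (-0.082 to 0.094, 9 pairs) and not every library correlated best with its own number, so the numbers were not taken to pair the libraries. With shArf1-2 the cytosolic median of 0.21 became 0.28 with library size and 0.28 with limma on either FPKM scale, and the number of lower genes ranged from 4 to 7 when single libraries were left out. Between the hairpins, leaving out single libraries gave 1 to 6 calls, 1 to 4 higher and 0 to 2 lower, and no filter on low counts gave 2 lower. Of genes past no threshold, Cars turned positive with library size (0.038) and limma (0.035 and 0.037 with 1 and 0.1 added), Farsb likewise (0.0030, 0.0026 and 0.0027) and Yars likewise (0.045, 0.044 and 0.045). When single libraries were left out Yars ranged from -0.0348 to 0.0037, Vars2 from -0.041 to 0.098 and Pstk from -0.00651 to 0.065. The cause of these changes was not tested. Library size moved the median of all genes by at most 0.07. Of 50 single-gene results, 32 kept direction and call throughout; among those that did not, apart from left-out libraries, Pars2 failed with limma on log2(FPKM + 0.1) (-0.39), Vars with 10 counts or more in each library (0.10), Aars2 with DESeq2 (0.19) and Iars2 with DESeq2, the replicate block, the upper quartile and either change of filter (0.14 to 0.15), while Gatc passed with library size (0.24). In Arf1-deficient cells the replicate block changed the call of no other gene of the pathway. The call for Qars between the hairpins failed with DESeq2 (0.18) and with limma (0.18 and 0.19 with 1 and 0.1 added). Genes at low levels, such as Wars2 (0.821 FPKM in control cells; SE of its log2 fold change 0.20), were measured less precisely than most others.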
